A study of Homo sapiens with 9 samples.

Results

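The extracellular matrix genes examined here encode collagens, laminin chains, adhesive glycoproteins, microfibril and proteoglycan components, and lysyl oxidases. The set holds 39 genes chosen by name, of 20045 genes with a probe of a single gene symbol on the arrays. Of these 39, 38 had a probe and 30 passed the filter on dim probes, and LAMA3, a laminin alpha chain, was not analysed here. Signals were read on single-colour Illumina bead arrays. The cells were MDA-MB231, a cell line from a human breast cancer with mesenchymal features. Every group was transduced with retrovirus and kept for 4 days under 2 µg/ml puromycin. The vector group received the control construct, the RAI2 group overexpressed RAI2 (retinoic acid induced 2), and the RAI2-4A group overexpressed a form whose 4A the labels do not explain. Each group had 3 arrays, and nothing in the labels says whether these were separate cultures, so p-values cover only the spread between these samples.

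Collagens are trimeric proteins that give the matrix its tensile strength, and laminins with type IV collagen form the basement membrane on which epithelial cells rest. Matricellular glycoproteins such as thrombospondins, tenascins and TGFBI are secreted into that scaffold and bind cell-surface receptors. Carcinoma cells make part of their own matrix, and several of these proteins are known for roles in invasion and metastasis of breast cancer.

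The deposited intensities had medians of 98.5 to 99.5 per array, and 42.4% to 47.9% of probes lay above background. An intensity of 99.8 to 104, depending on the array, was the limit of background. The single RAI2 probe was above it on 0 vector arrays and read 559 to 632 on RAI2 arrays and 955 to 1158 on RAI2-4A arrays. Of 10 marker genes of this mesenchymal line, 8 were above background on all 9 arrays, and KRT18 and ZEB1 on 2. Of 8 luminal markers EPCAM, ERBB3 and KRT19 were above it on all 9 arrays, CDH1 and GATA3 on 8, and ESR1, FOXA1 and PGR on 0. Replicate 1 of vector and replicate 2 of both RAI2 and RAI2-4A deviated together from their groups (residual correlations across genes of 0.437 to 0.538). The genes that passed, TNC, COL5A1, COL6A1 and COL6A3 are also given without them. These 3 arrays were picked from the data, not the labels. Other pairs correlated as much, such as replicate 1 of RAI2 and RAI2-4A (0.445) and vector replicate 2 with RAI2-4A replicate 3 (0.47). Values without the 3 arrays are therefore not given as support. In bulk RNA, fewer cells that express a gene and less transcript per cell cannot be told apart.

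In RAI2 cells the matrix genes that rose were a pair of adhesive glycoproteins, TGFBI and THBS1, and no collagen, laminin, fibrillin or lysyl oxidase passed the test. Of the 30 genes tested 2 rose, 0 fell and 28 did not pass, at an adjusted p of 0.05 (limma, Benjamini-Hochberg over 12419 genes). Over all genes tested, 0.322% rose and 0.0966% fell by the same rule (0.419% in either direction). An unadjusted p under 0.05 in limma was reached by 9 of the 30, against 5.91% of all genes. In RAI2-4A cells 0 of the 30 passed, against 0.0886% of all genes, and 5 had an unadjusted p under 0.05 in limma, against 3.99% of all genes. Between RAI2 and RAI2-4A cells 0 of the 30 passed, against 0.378% of all genes, and 6 had an unadjusted p under 0.05, against 4.84%. The comparisons with vector share the same 3 vector arrays. The 30 genes were chosen with earlier results of these data known. COL3A1 and COL5A2, dim and kept through some groups only, are among the 9 in RAI2 cells, so these counts are not given as support.

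TGFBI, a secreted protein induced by TGF-beta that binds collagens and integrins, gave the largest difference among the 30 genes. Its only probe (ILMN_1663866) read 370, 325 and 319 on the vector arrays, 867, 919 and 718 on the RAI2 arrays, and 672, 428 and 521 on the RAI2-4A arrays. All RAI2 arrays lay above all RAI2-4A arrays, and these lay above all vector arrays. TGFBI rose by 1.36 log2 units in RAI2 cells (2.57-fold, SE 0.16, n = 3 per group, limma, adjusted p = 0.00141). In RAI2-4A cells the difference from vector was 0.69 (95% interval 0.35 to 1.04), which did not pass (limma, adjusted p = 0.316). RAI2 minus RAI2-4A came to 0.67 (95% interval 0.32 to 1.01, limma, adjusted p = 0.158), so a difference between the forms was not established over all genes. Without the 3 arrays that deviated together, TGFBI in RAI2-4A cells differed from vector by 0.93 (SE 0.14, limma, adjusted p = 0.0199), past the threshold. RAI2 minus RAI2-4A was then smaller, 0.43 (limma, adjusted p = 0.465), and RAI2 minus vector stayed at 1.36 (limma, adjusted p = 0.000562). The arrays left out held the highest vector (370), highest RAI2 (919) and lowest RAI2-4A (428) readings of TGFBI. The direction of both RAI2-4A changes therefore followed from the choice of arrays. With single arrays left out, RAI2 minus RAI2-4A ranged from 0.51 without RAI2-4A replicate 2 (limma, adjusted p = 0.549) to 0.85 without RAI2-4A replicate 1, the only one of these that passed (limma, adjusted p = 0.0390).

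THBS1, thrombospondin 1, is a matricellular protein that binds CD36 and CD47 and can activate latent TGF-beta. Its probe (ILMN_1686116) read 2390, 2557 and 2756 in vector, 5607, 4439 and 3957 in RAI2, and 4069, 3165 and 3376 in RAI2-4A cells. The RAI2 and RAI2-4A arrays all lay above the vector arrays, and RAI2 overlapped RAI2-4A. THBS1 rose by 0.86 log2 units in RAI2 cells (1.81-fold, SE 0.14, limma, adjusted p = 0.0149). For RAI2-4A the difference from vector was 0.46 (95% interval 0.16 to 0.76, limma, adjusted p = 0.840), and RAI2 minus RAI2-4A was 0.40 (95% interval 0.09 to 0.70, limma, adjusted p = 0.673). The call in RAI2 cells was lost without RAI2 replicate 1 (0.71, limma, adjusted p = 0.0830), RAI2 replicate 2 (0.88, adjusted p = 0.0688) or vector replicate 2 (0.85, adjusted p = 0.0626). It was kept without the 3 arrays that deviated together (0.83, limma, adjusted p = 0.0357).

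TNC, tenascin-C, is a large glycoprotein of remodelling matrix, and it was singled out after its values were seen. Its brighter probe (ILMN_1719759) read 257, 283 and 308 in vector, 529, 434 and 437 in RAI2, and 320, 205 and 299 in RAI2-4A cells. All RAI2 arrays lay above the other 6, while vector and RAI2-4A overlapped. The difference from vector was 0.77 in RAI2 cells (SE 0.17, limma, adjusted p = 0.0863) and -0.07 in RAI2-4A cells (95% interval -0.44 to 0.29, limma, adjusted p = 0.994). RAI2 minus RAI2-4A was 0.84 (SE 0.17, limma, adjusted p = 0.0544), just short of the threshold. With the replicate number as a block over RAI2 and RAI2-4A, TNC passed both against RAI2-4A (adjusted p = 0.0210 in limma) and against vector (adjusted p = 0.0336 in limma), but with the block over all groups it passed neither (0.0730 and 0.101). Trend and robust variance estimates (0.0148 and 0.0280) and a fit of only the groups compared (0.0448 and 0.0273) also brought both past the threshold. Without the 3 arrays that deviated together the differences were 0.68 (limma, adjusted p = 0.0383) and 0.75 (limma, adjusted p = 0.0221). Without RAI2-4A replicate 2 the RAI2-4A minus vector value turned to 0.14, and RAI2 minus RAI2-4A fell to 0.63 (limma, adjusted p = 0.134). The second TNC probe (ILMN_2145670) gave 0.50 for RAI2 minus vector and 0.54 for RAI2 minus RAI2-4A. Neither passed over every kept probe (adjusted p in limma 0.411 and 0.327).

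**Figure D1:**
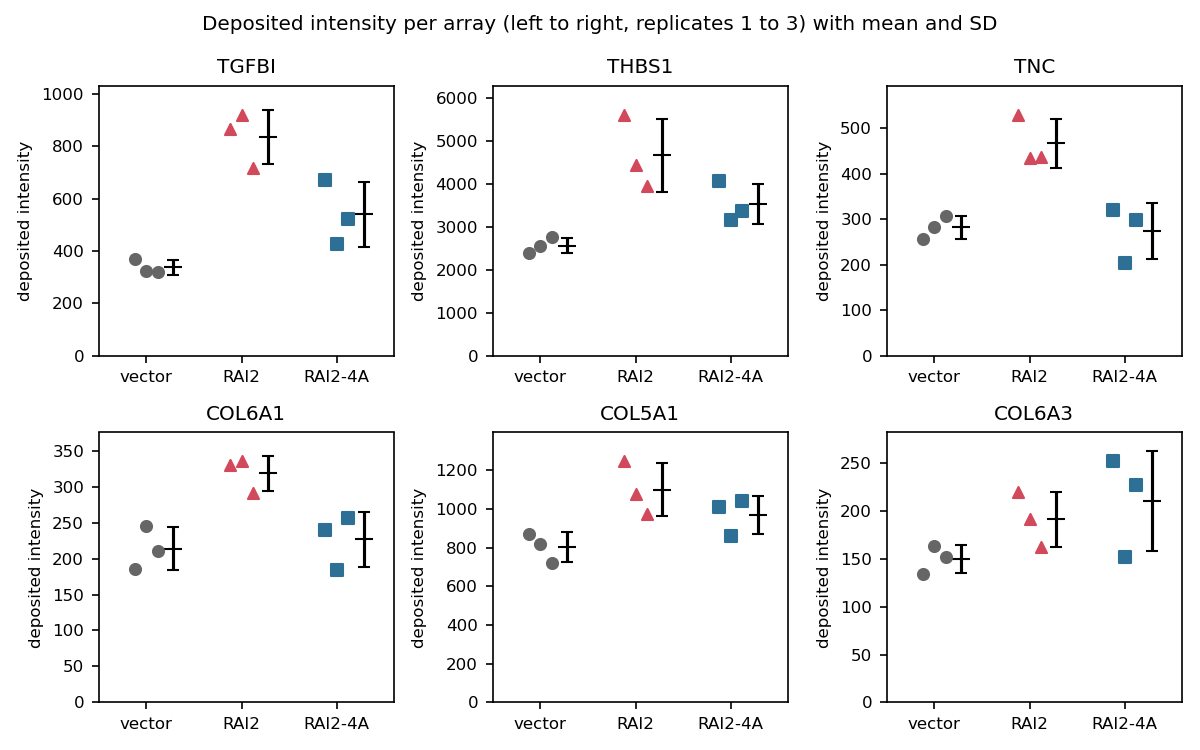
Deposited intensity (linear scale, from 0) of 6 matrix genes on each array, with replicates 1 to 3 from left to right and the mean and SD (n = 3) beside them. For TGFBI, THBS1, TNC, COL6A1 and COL5A1 the RAI2 arrays all lie above the vector arrays. For COL6A3 the groups overlap.

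The other glycoproteins of this role were dim in these cells. FN1 (fibronectin, the main ligand of several integrins) had 3 probes, of which 1 was above background, on 1 of 9 arrays, with intensities of 78.3 to 116. SPARC, a collagen-binding protein, read 85.3 to 101 and was above background on 1 array. Both SPP1 (osteopontin) probes together were above background on 1 array, as were both POSTN (periostin) probes, and the probe of THBS2 on 0. No difference was tested for these 5 genes, because none of their probes was above background on 3 arrays, and the signal of a probe does not measure protein in the matrix.

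**Figure D2:**
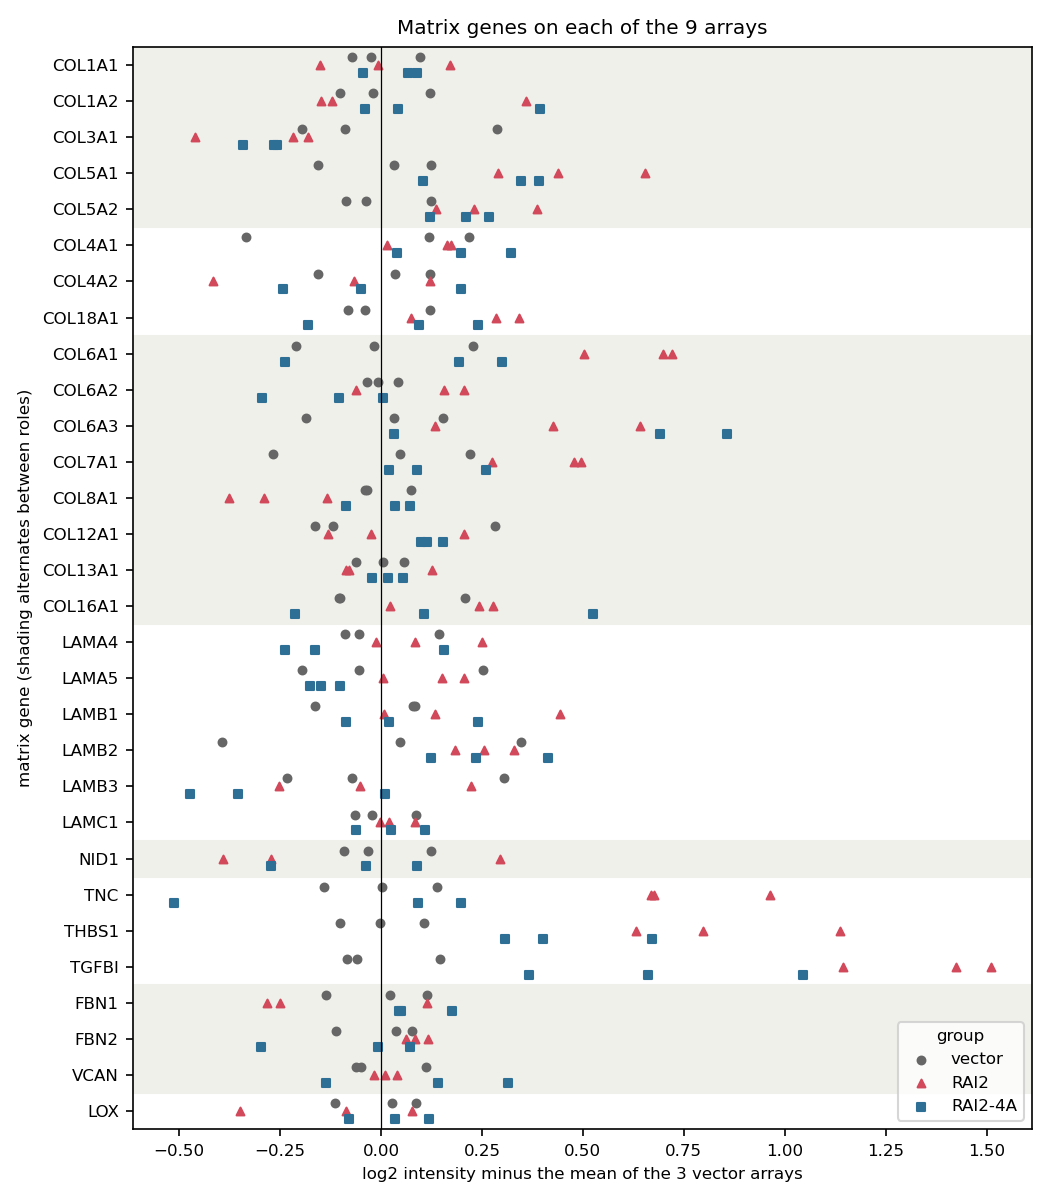
Each of the 30 tested matrix genes on each of the 9 arrays, as background-corrected log2 intensity minus the mean of the 3 vector arrays. Shading separates the roles. The RAI2 arrays of TNC, THBS1, TGFBI, COL5A1, COL5A2, COL6A1 and COL7A1 stand to the right of every vector array.

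The promoters of these 3 glycoprotein genes are shown because TGFBI and THBS1 both rose in RAI2 cells and TNC came closest to the threshold among the rest. The sequences are from RefSeq, build GRCh38.p14, run 5′ to 3′ on the strand of the gene, and cover 250 bases before and 50 after the start. The stretches lie at chr5:136028738-136029037 (plus strand) for TGFBI, chr15:39580829-39581128 (plus strand) for THBS1 and chr9:115118108-115118407 (minus strand) for TNC. Capitals mark the GC box GGGCGG on either strand, and in THBS1 also the TEAD site GGAATG. These marked matches do not overlap each other.
TGFBI: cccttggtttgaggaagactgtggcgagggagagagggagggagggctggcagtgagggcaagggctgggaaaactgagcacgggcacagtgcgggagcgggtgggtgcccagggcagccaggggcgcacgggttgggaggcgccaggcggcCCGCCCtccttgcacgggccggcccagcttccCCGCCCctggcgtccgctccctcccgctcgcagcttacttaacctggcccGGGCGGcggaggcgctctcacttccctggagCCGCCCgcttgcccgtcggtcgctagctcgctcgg
THBS1: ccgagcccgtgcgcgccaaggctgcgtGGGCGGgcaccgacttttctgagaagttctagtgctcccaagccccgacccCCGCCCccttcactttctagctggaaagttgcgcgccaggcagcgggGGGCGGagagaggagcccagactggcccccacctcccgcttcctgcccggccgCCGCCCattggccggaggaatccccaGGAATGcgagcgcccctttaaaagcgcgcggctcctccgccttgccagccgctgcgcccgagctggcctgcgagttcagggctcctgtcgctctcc
TNC: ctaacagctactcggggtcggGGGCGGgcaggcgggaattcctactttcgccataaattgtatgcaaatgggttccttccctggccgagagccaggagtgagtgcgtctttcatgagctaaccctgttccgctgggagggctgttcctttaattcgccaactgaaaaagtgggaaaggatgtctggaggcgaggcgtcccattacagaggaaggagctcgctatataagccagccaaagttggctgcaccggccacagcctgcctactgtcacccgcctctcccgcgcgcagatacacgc

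TGFBI and THBS1 each held 4 GC boxes and TNC held 1. The table held 38 promoters of 32 matrix genes. A GC box was present in 28 of these 38 promoters (73.7%) and in 45% of all 35116 promoters, and the matrix promoters were richer in G and C (median 65.5% against 58.7%). The TEAD site was present in 5 of 38 and in 14% of all promoters. The other motifs searched on both strands were absent, as exact letters, from the 3 windows shown. They were the TATA box TATAAA (6 of 38, and 11.5% of all promoters), the AP-1 site TGANTCA (3 of 38, 7.71%), the E-box CACCTG of ZEB and SNAI factors (7 of 38, 20.6%) and the DR5 retinoic acid element, a pair of AGGTCA motifs 5 bases apart (0 of 38, 0.0057%). A match describes letters, not binding, and variant forms of these motifs were not searched. The TNC window holds tatataag, a variant of the TATA box letters that was not counted. The exact DR5 letters were in so few promoters that their absence here says little about such elements.

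Among the fibril-forming collagens 0 of 5 passed in any comparison. COL5A1 encodes a type V chain that helps to set fibril diameter, and read 870, 818 and 719 in vector, 1246, 1076 and 974 in RAI2, and 1012, 858 and 1042 in RAI2-4A cells. The RAI2 arrays lay above the vector arrays and the RAI2-4A arrays overlapped them, with differences from vector of 0.46 (95% interval 0.19 to 0.74, limma, adjusted p = 0.266) and 0.28 (95% interval 0.01 to 0.56, limma, adjusted p = 0.994). Without the 3 arrays that deviated together these were 0.54 and 0.43, and neither passed (adjusted p in limma 0.175 and 0.627). COL5A2, its partner chain, was above background on 0 vector arrays, at 94.0, 103 and 92.1, and on all RAI2 (104, 109 and 119) and RAI2-4A arrays (108, 103 and 112). On group means its signal was at least 1.10-fold that of vector with RAI2 and at least 1.06-fold with RAI2-4A. Neither passed (adjusted p in limma 0.776 and 0.994). Such a bound leaves out the spread between arrays, and the RAI2-4A arrays overlapped the vector arrays. For this bound the mean of the bright group was divided by a floor, taken on each vector array as the larger of the own signal of COL5A2 and the dimmest signal above background.

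COL3A1, which neighbours COL5A2 on chromosome 2, exceeded background on 2 vector arrays, 1 RAI2 array and 0 RAI2-4A arrays. With a floor set in the same way on the RAI2-4A arrays, it was 1.10-fold lower there than in vector on group means. This is no lower bound, because vector replicate 1 (98.9) was itself not above background and the spread between arrays is left out. The log2 difference of COL3A1 from vector was -0.29 with RAI2-4A (95% interval -0.57 to 0.00, limma, adjusted p = 0.994) and -0.29 with RAI2 (limma, adjusted p = 0.841). Neither passed, and the vector arrays read 98.9, 106 and 130. The type I collagen chains COL1A1 and COL1A2 differed from vector by 0.00 and 0.03 in RAI2 cells and by 0.04 and 0.13 in RAI2-4A cells. For genes this dim, the offset of 50 added before the log2 step makes differences smaller. COL1A1 was above background on 4 of 9 arrays and COL1A2 on all 9, at 105 to 143. A second COL1A2 probe was above background on 2 arrays, at 88.8 to 114.

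Among the basement membrane collagens 0 of 3 passed in any comparison. COL4A1 and COL4A2, which encode partner chains of type IV collagen and neighbour each other on chromosome 13, were above background on all 9 arrays. COL4A1 read 524, 709 and 757 in vector, 731, 662 and 736 in RAI2, and 813, 673 and 748 in RAI2-4A cells, and the groups overlapped. Its differences from vector were 0.12 (95% interval -0.19 to 0.42) for RAI2 and 0.19 (95% interval -0.12 to 0.49) for RAI2-4A, and those of COL4A2 were -0.12 and -0.03. Vector replicate 1 was the lowest COL4A1 reading, and without it the COL4A1 differences were -0.05 and 0.02. COL18A1, the source of endostatin, read 393, 451 and 405 in vector, 521, 501 and 437 in RAI2, and 488, 369 and 442 in RAI2-4A cells. Here too the groups overlapped, with a difference from vector of 0.23 in RAI2 cells (95% interval -0.04 to 0.51). Its second probe, above background on 1 array, gave -0.06.

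Type VI collagen forms beaded filaments around cells, and 0 of its 3 chains passed in any comparison. COL6A1 read 186, 245 and 210 in vector, 330, 335 and 291 in RAI2, and 240, 184 and 256 in RAI2-4A cells. All RAI2 arrays lay above the other 6, and vector and RAI2-4A overlapped. RAI2 minus vector was 0.64 (95% interval 0.31 to 0.97, limma, adjusted p = 0.130) and RAI2 minus RAI2-4A 0.56 (95% interval 0.23 to 0.88, limma, adjusted p = 0.291). Without the 3 arrays that deviated together they were 0.49 and 0.35. COL6A2, next to COL6A1 on chromosome 21, differed by 0.10 and 0.23 in these comparisons over all arrays, at 94.7 to 125. A further COL6A2 probe, above background on 2 arrays, gave 0.32 and 0.24, and another, above it on 0 arrays, gave -0.02 and 0.04.

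COL6A3 read 134, 164 and 152 in vector, 220, 192 and 162 in RAI2, and 252, 152 and 227 in RAI2-4A cells. In both overexpressing groups 1 array overlapped the vector range, and RAI2-4A replicate 2 was the lowest of its group. The differences from vector were 0.40 (95% interval -0.02 to 0.82) for RAI2 and 0.53 (95% interval 0.11 to 0.94, limma, adjusted p = 0.994) for RAI2-4A, with a second probe at 0.32 in both. RAI2 minus RAI2-4A was -0.13, and -0.39 without the 3 arrays that deviated together (limma, adjusted p = 0.627). COL6A3 had the widest spread within groups of the 30 genes, with a residual SD of 0.31 log2 units.

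COL7A1, the anchoring fibril collagen beneath epithelia, and COL8A1, a short-chain network collagen, were named after their values were seen. COL7A1 read 259, 290 and 213 in vector, 346, 341 and 301 in RAI2, and 267, 255 and 297 in RAI2-4A cells, so the RAI2 arrays lay above the other 6. Its differences were 0.42 from vector (95% interval 0.13 to 0.70, limma, adjusted p = 0.425) and 0.29 from RAI2-4A (95% interval 0.01 to 0.58, limma, adjusted p = 1.00).

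COL8A1 went the other way, with all RAI2 arrays below the other 6. It read 3005, 2781 and 2792 in vector, 2206, 2341 and 2606 in RAI2, and 2690, 2928 and 3002 in RAI2-4A cells. The difference from vector was -0.27 in RAI2 cells (95% interval -0.49 to -0.04, limma, adjusted p = 0.700) and 0.01 in RAI2-4A cells, and the 2 further COL8A1 probes gave -0.16 and -0.26 for RAI2 minus vector. COL12A1, COL13A1 and COL16A1 lay within 0.18 of vector in both comparisons. COL12A1 associates with collagen fibrils, and its 2 probes gave 0.02 and 0.04 for RAI2 minus vector and 0.12 and -0.16 for RAI2-4A minus vector.

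**Figure D3:**
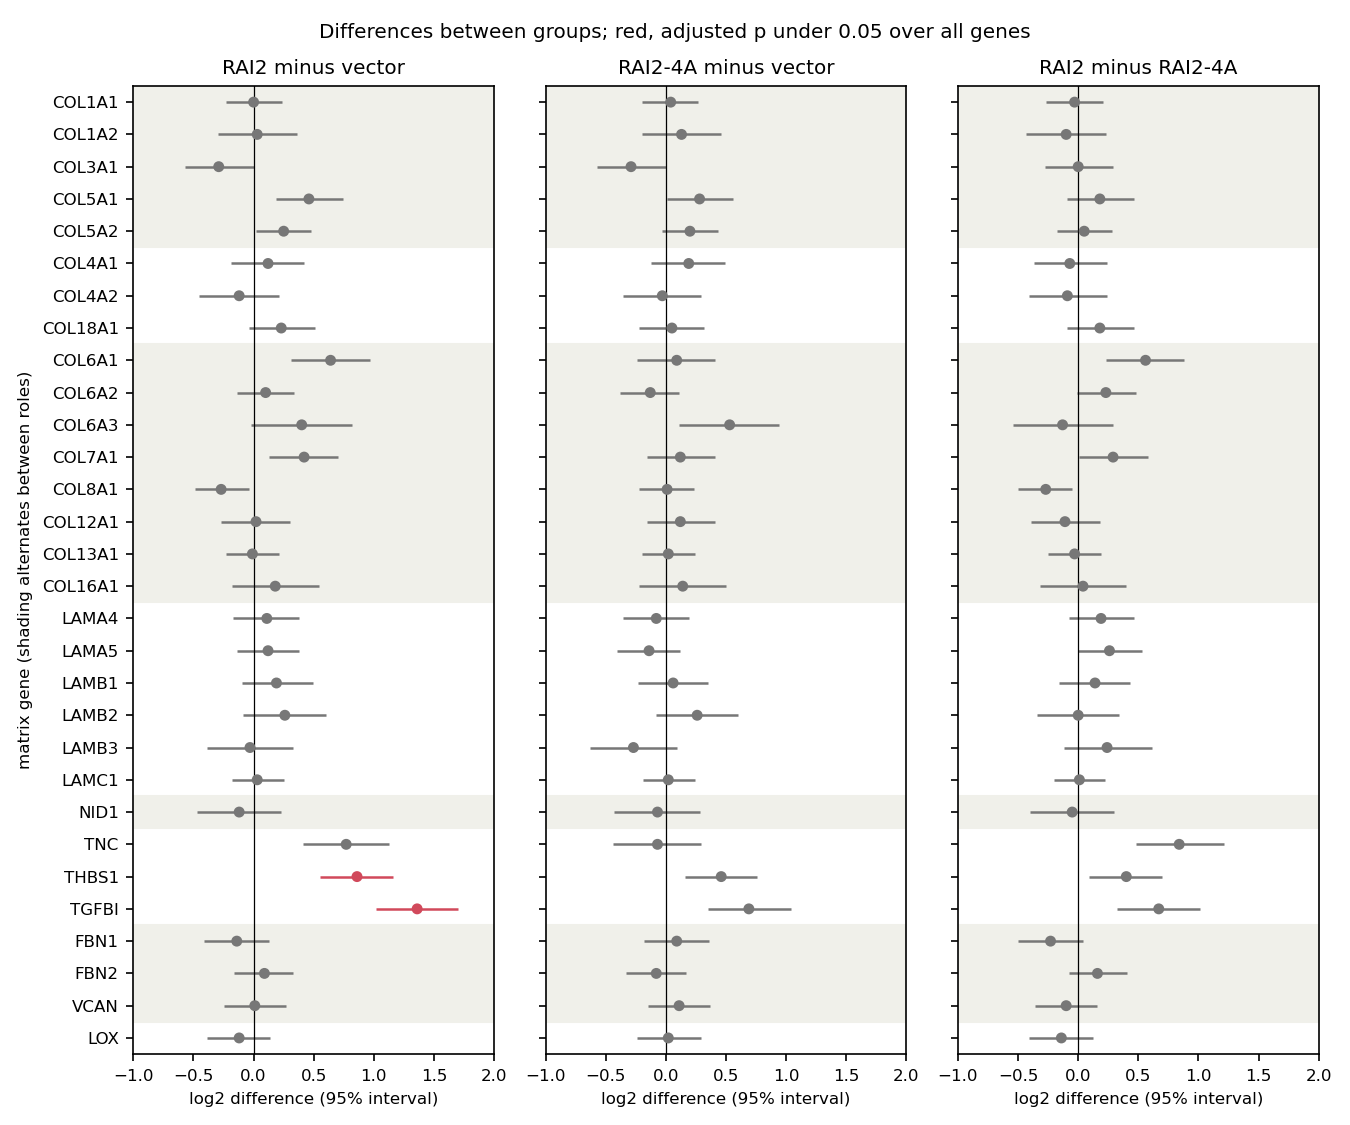
Log2 difference with its 95% interval (limma) for the 30 tested matrix genes in the 3 comparisons, with red for an adjusted p under 0.05 over all genes. TGFBI and THBS1 in RAI2 minus vector are the 2 red points.

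Of the laminin chains 0 of 6 passed in any comparison. LAMA5, an alpha chain of epithelial basement membranes, read 2911, 2358 and 2140 in vector, 2456, 2820 and 2716 in RAI2, and 2213, 2170 and 2282 in RAI2-4A cells. RAI2 arrays lay above RAI2-4A arrays and both overlapped vector, whose spread was wide, and RAI2 minus RAI2-4A was 0.26 (95% interval 0.00 to 0.53, limma, adjusted p = 1.00). LAMB3, a chain of the laminin that anchors epithelial cells, read 2401, 1856 and 1664 in vector, 1641, 2270 and 1882 in RAI2, and 1413, 1963 and 1531 in RAI2-4A cells. The replicates of each group spread widely and overlapped, and the differences from vector were -0.03 (95% interval -0.39 to 0.33) in RAI2 cells and -0.27 (95% interval -0.63 to 0.09) in RAI2-4A cells.

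LAMC1, the gamma chain shared by most laminins, had the smallest residual SD of the set, 0.07, at 2637 to 2969. It differed from vector by 0.03 (95% interval -0.18 to 0.25) in RAI2 cells and by 0.02 (95% interval -0.19 to 0.24) in RAI2-4A cells. LAMB1 differed by 0.19 on its brighter probe and 0.28 on the other in RAI2 cells, LAMB2 by 0.26 in RAI2 and in RAI2-4A cells, and LAMA4, above background on 3 of 9 arrays, by 0.11 and -0.08. None of these passed. The laminin-binding linker NID1 was above background on 3 of 9 arrays and differed from vector by -0.12 and -0.07, and the proteoglycan HSPG2 (perlecan) was above background on none.

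The microfibril genes FBN1 and FBN2, which encode fibrillins, were close to background. FBN1 read 109, 96.3 and 104 in vector, 110, 90.3 and 89.4 in RAI2, and 106, 114 and 106 in RAI2-4A cells. FBN2 read 94.5, 103 and 105 in vector, 106, 107 and 105 in RAI2, and 105, 86.5 and 101 in RAI2-4A cells. Both genes overlapped between groups, with differences from vector of -0.14 and 0.09 for FBN1 and of 0.09 and -0.08 for FBN2. The proteoglycan VCAN (versican) differed by 0.01 and 0.11, and BGN (biglycan) was above background on 0 arrays.

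LOX, the lysyl oxidase that cross-links collagen and elastin, read 272, 299 and 310 in vector, 309, 235 and 278 in RAI2, and 317, 279 and 300 in RAI2-4A cells. The groups overlapped, and the differences from vector were -0.12 (95% interval -0.39 to 0.14) and 0.02 (95% interval -0.24 to 0.29). LOXL2, a related oxidase, was above background on 0 arrays.

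Counted without a test, the 3 RAI2 arrays lay above the 3 vector arrays for 7 of the 30 genes and below for 1, against 6.26% and 3.81% of all genes. RAI2-4A arrays lay above vector for 2 and below for 1, against 4.86% and 3.12%. RAI2 arrays lay above RAI2-4A for 5 and below for 1, against 5.82% and 5.5%. The median difference of the 30 genes was 0.10 for RAI2 minus vector, 0.05 for RAI2-4A minus vector and 0.03 for RAI2 minus RAI2-4A, beside 0.02, 0.02 and 0.00 over all genes. For the 20 matrix genes above background on all 9 arrays the medians were 0.16, 0.07 and 0.07, beside 0.02, 0.03 and 0.00 for all 9923 such genes. The filter kept a dim gene when 3 arrays, possibly of 1 group, were above background, as for COL5A2, so these counts describe the genes measured and are not given as support.

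In related gene lists a single gene passed in any comparison. MATN2 (matrilin 2, a filament-forming adaptor protein) read 1754, 2010 and 2102 in vector, 1353, 1250 and 1596 in RAI2, and 2378, 2565 and 2357 in RAI2-4A cells. Its arrays did not overlap between any 2 groups, RAI2 being lowest and RAI2-4A highest. RAI2 minus RAI2-4A was -0.81 (SE 0.12, limma, adjusted p = 0.00578), while -0.49 for RAI2 and 0.32 for RAI2-4A against vector did not pass (adjusted p in limma 0.142 and 0.994). The mean of its probes gave -0.65, short of the threshold (adjusted p in limma 0.0533), and the 6 arrays that remain without those that deviated together gave -0.70 (adjusted p in limma 0.0237). It was 1 of 26 measured genes in a list of other matrix glycoproteins and proteoglycans, of which 0 rose and 1 fell in that comparison, where 0.193% and 0.185% of all genes did so.

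For collagen folding and cross-linking enzymes 0 of 21 passed in any comparison. The closest was TGM2, a transglutaminase that cross-links matrix proteins, which read 1924, 2014 and 1827 in vector, 3729, 3106 and 2876 in RAI2, and 2949, 1932 and 2574 in RAI2-4A cells. RAI2 arrays lay above vector arrays, with a difference of 0.75 (SE 0.15, limma, adjusted p = 0.0529), and RAI2-4A replicate 2 lay within the vector range. TLL1, a procollagen-processing protease, was above background on 1 vector array, 0 RAI2 arrays and 3 RAI2-4A arrays, at 90.2 to 122, and its comparison of RAI2 with RAI2-4A did not pass (limma, adjusted p = 0.494).

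Nor did any of 6 other collagens, 3 other laminin and basement membrane genes, 17 matrix receptors or 17 matrix proteases and inhibitors pass. Among their genes with the smallest p, COL4A5 is a type IV chain that differed from vector by 0.44 in RAI2 and 0.43 in RAI2-4A cells, and AGRN (agrin) differed by 0.33 and 0.26. COL9A3 gave -0.17 for RAI2-4A minus vector and NTN4 -0.29 for RAI2 minus RAI2-4A, each the comparison with its smallest p. For the receptors, the collagen-binding integrin ITGA2 gave -0.21 and -0.35 against vector, and ITGB4, the laminin-binding beta chain, gave 0.46 for RAI2 minus RAI2-4A. SERPINE2, a protease inhibitor, gave 0.47 for RAI2 minus RAI2-4A, and the plasminogen activator PLAT gave 0.53 for RAI2 minus vector (limma, adjusted p = 0.171 and 0.191).

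Markers of other cell types were read on the same arrays. Of 8 fibroblast markers PDGFRB and LUM (lumican, a collagen-binding proteoglycan) were above background on all 9 arrays, DCN, FAP and PDGFRA on 1 or 2, and COL14A1, DPT and THY1 on 0. PDGFRB, a growth factor receptor, read 147, 166 and 153 in vector, 145, 136 and 142 in RAI2, and 181, 195 and 198 in RAI2-4A cells, so the RAI2-4A arrays lay above the other 6. Its RAI2-4A minus vector value was 0.34 (limma, adjusted p = 0.808) and RAI2 minus RAI2-4A -0.51 (SE 0.10, limma, adjusted p = 0.0538), and LUM gave 0.31 and -0.34, none of which passed. The summed intensity of the fibroblast list was 829 to 864 in vector, 807 to 840 in RAI2 and 844 to 940 in RAI2-4A cells. The part of these markers in the rise of TGFBI and THBS1 was not tested. Of 6 endothelial markers PECAM1 was above background on all 3 vector arrays (141, 108 and 105), 0 RAI2 arrays and 1 RAI2-4A array, KDR on 3 of 9, TEK on 1, and CDH5, TIE1 and VWF on 0 (the 6 summed to 551 to 612 in vector, 538 to 583 in RAI2 and 528 to 579 in RAI2-4A cells). Of 6 markers of packaging cells NEFL was above it on 2 vector, 2 RAI2 and 0 RAI2-4A arrays, PAX2 and SOX11 on 1 of 9, and INA, LIN28B and NEFM on 0 (the 6 summed to 543 to 572, 551 to 565 and 537 to 560 in the same order).

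**Figure D4:**
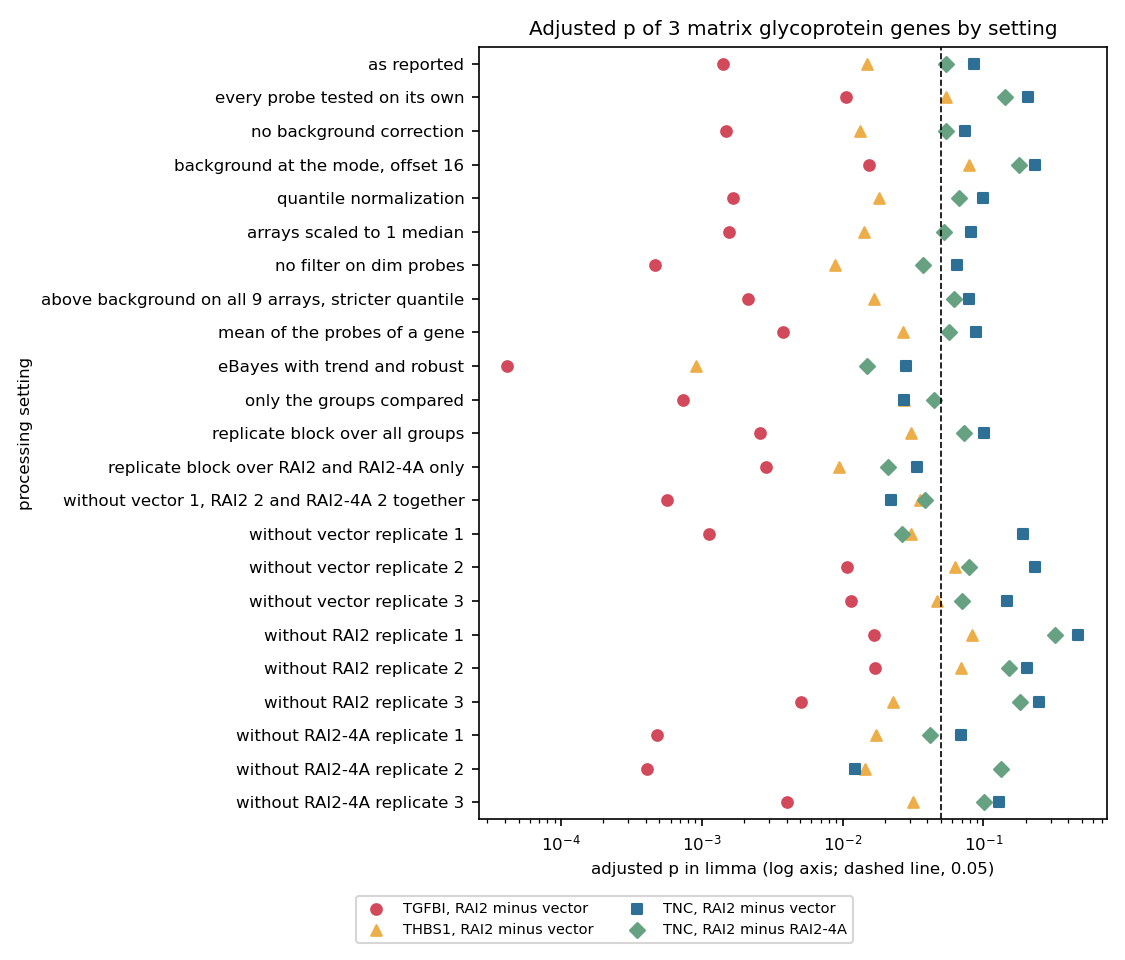
Adjusted p in limma (log axis) for TGFBI, THBS1 and TNC under each processing setting, with the threshold of 0.05 dashed. TGFBI in RAI2 minus vector stays left of the line in every setting, while THBS1 crosses it in 5 and TNC lies on either side.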

How the data were processed

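The deposited value table holds linear intensity values for 47323 probes on 9 arrays, and their near-equal medians are those of values the authors had normalized. How this was done is not given in the sources used here. BeadStudio and limma appear in the submitters' processing notes. A further 18 columns (9 signals, 9 detection p) carry names that match no single sample and were not used. Probes with a missing value (3) were dropped. Each array was background-corrected with limma's normexp model (offset 50), then put on a log2 scale. A probe was above background when it exceeded the array's log2 mode by 1.645 SD, taken from the values under the mode. Probes above on at least 3 arrays were kept, and the brightest stood for its gene (12419 genes). Gene names come from the platform annotation (30113 probes with 1 symbol) and RefSeq, which changed 0 symbols.

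The 3 comparisons were fitted with limma 3.58.1 in R 4.3.3 over all 9 arrays (6 residual degrees of freedom), with Benjamini-Hochberg adjustment over all genes. The fit was run on simulated data with independent noise on each array, which does not cover arrays that deviate together. The genes and lists were chosen with earlier results of these data known. Per-array values were to be given for RAI2, for matrix genes past the threshold, and for the 2 largest differences per role among genes above background on all arrays of a group. Of the related lists the rule named up to 4 genes past the threshold or, where none passed, the 2 with the smallest p. Between RAI2 and RAI2-4A, arrays of equal number shared deviations (residual correlations 0.445, 0.437 and 0.231). The pairing was read from the data, not the labels. Vector did not share it (-0.434 to 0.197). Alternatives varied background, normalization, filter, probe rule, variance model, block and arrays.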

Additional observations from a re-analysis of the deposited data

How the results depend on the processing

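With 3 arrays per group, differences near the spread of replicates cannot be settled, and dim genes have only bounds. TGFBI in RAI2 minus vector passed in every setting run (1.28 to 1.47 with single arrays left out, highest adjusted p in limma 0.0169). THBS1 lost its call with every probe tested on its own (limma, adjusted p = 0.0538) and with the background at the mode and an offset of 16, changed together (0.87, adjusted p = 0.0795), leaving 1 matrix gene called for RAI2 minus vector in each. With single arrays left out that count ranged from 1 to 3, the 3 being without RAI2-4A replicate 2. It was also 3, with TNC added, with trend and robust, with only the groups compared, with the replicate block over RAI2 and RAI2-4A, and without vector 1, RAI2 2 and RAI2-4A 2 together. For RAI2-4A minus vector it was 0 throughout (0 to 0), but 1 (TGFBI) without those 3 arrays. For RAI2 minus RAI2-4A it was 1 (TNC) with no filter on dim probes, with trend and robust, with only the groups compared, without those 3 arrays, and with the replicate block over RAI2 and RAI2-4A, and 0 to 2 with single arrays left out. With the replicate block over all groups the matrix counts were 2, 0 and 0, and apart from these TNC calls neither block changed a call of a named matrix gene. The cause was not tested.

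Over all genes, 52 passed for RAI2 minus vector, but 30 with every probe on its own and 33 with probes averaged per gene, and 21 to 56 with single arrays left out (27 without vector replicate 3, 21 without RAI2 replicate 1 or 2, 26 without RAI2 replicate 3). For RAI2-4A minus vector 11 passed, but 7 with every probe on its own, 6 with the stricter filter, 17 with trend and robust, 7 with only the groups compared, 17 without the 3 arrays, and 5 to 11 with single arrays left out (7, 5 and 6 without vector replicate 2, vector replicate 3 and RAI2-4A replicate 1). For RAI2 minus RAI2-4A 47 passed, but 25 with the stricter filter and 30 to 77 with single arrays left out (77 without vector replicate 1, 30 and 31 without RAI2 replicates 1 and 3). Of 1113 alternative values of named genes 19 changed sign, none of them of a called difference. A block for slide could not be fitted, because slides are not given in the sources used here.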
